A study of Mus musculus with 6 samples.

Results

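The clustered protocadherins are cell surface proteins of the cadherin superfamily, whose genes lie side by side in 3 clusters named alpha, beta and gamma. All genes of the count table whose symbol begins with Pcdha, Pcdhb, Pcdhga, Pcdhgb or Pcdhgc followed by a number, together with Pcdhac1 and Pcdhac2, were taken, which gave 58 of 53801 genes. They comprised 12 alpha isoforms, 22 beta isoforms, 12 gamma A isoforms, 7 gamma B isoforms and 5 C-type isoforms. The choice used names and no measured value. The polyadenylated RNA sequenced was that of whole brains from 6 C57BL/6 mouse embryos, all at stage E16.5. Bahd1-KO embryos (Bahd1-/-, n = 3) lacked both functional copies of Bahd1 in every tissue, and Bahd1-WT embryos (Bahd1+/+, n = 3) were wild type. Both came from matings of heterozygous mice, and no treatment was given. The question was whether the RNA levels of these genes changed before birth when BAHD1, a scaffold protein of gene-silencing complexes, was missing.

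Each neuron is known to switch on a small, largely random set of alpha, beta and gamma isoforms, while C-type isoforms are turned on in a more regular, cell type-dependent way. The proteins form mixed pairs and bind the same isoforms on facing membranes, which lets the branches of a neuron tell self from non-self. The choice of isoform is made by the choice of promoter. It involves looping of promoters to distant enhancers through CTCF and cohesin, methylation of promoter DNA, and repressors such as SETDB1 and SMCHD1. The family was therefore of interest in a brain without a protein of repressive chromatin.

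The libraries held between 61.7 and 91.8 in units of 1e6 counts, of which the 58 genes took between 0.0248 and 0.0846%. For Bahd1 itself the Bahd1-KO libraries had 2, 10 and 6 counts, and the Bahd1-WT libraries 1971, 3102 and 3470. Its log2 fold change, Bahd1-KO over Bahd1-WT, was -8.40 (SE 0.608, adjusted p = 0.0462 by the quasi-likelihood test of edgeR with Benjamini-Hochberg adjustment). With 1 embryo left out the fold change was -8.78 to -8.01, but the adjusted p ran from 0.0158 to 0.685. Bahd1-KO replicate 3 stood apart from the other 5 libraries. Protein-coding genes took 53.5% of its counts against 97.8 to 98.4% elsewhere. In this library 36.0% of all genes tested lay below the other 5 embryos and 38.1% above, and the marker counts that follow are read beside these shares. Of 14 neuron markers, 8 lay below the other 5 embryos in this library and 1 above, and none was at 0 in any embryo. Their summed level was 3133 CPM (counts per 1e6 counts of the library, scaled with TMM factors) in this embryo, 10613 and 11267 in the other Bahd1-KO embryos, and 10162 to 12349 in the Bahd1-WT embryos. Lung markers summed to 1353 CPM against 14.7 to 28.3, with 7 of 7 markers above the other embryos. Some lung genes were also raised in Bahd1-KO replicate 2. There Scgb1a1 had 6.05 CPM and Sftpc 2.66, against 0.0611 to 0.159 and 0 to 0.109 in Bahd1-KO replicate 1 and Bahd1-WT. Nkx2-1 and Ager lay within the range of those embryos. Fits without Bahd1-KO replicate 3 keep this library. Markers of meninges and connective tissue summed to 2293 in Bahd1-KO replicate 3 against 399 to 490, with 7 of 9 above and 2 below. The 2 below were Foxc1 (7.47 CPM against 11.7 to 17.4) and Foxc2 (0.908 against 2.32 to 3.74). Skeletal muscle markers summed to 82.9 against 2.44 to 12.1, with 8 of 8 above. Genotype differences are therefore set beside their values without Bahd1-KO replicate 3, and the part of these markers in the results was not tested.

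All 58 genes were annotated on the plus strand of chromosome 18 of GRCm38. The alpha cluster ran from 36930184 to 37187661 (257 kb) and held 14 of the genes, Pcdhac1 and Pcdhac2 included. The beta cluster ran from 37264938 to 37524479 (260 kb) with 22 genes. The gamma cluster ran from 37661793 to 37841873 (180 kb) with 22 genes, Pcdhgc3, Pcdhgc4 and Pcdhgc5 included. An alpha or gamma isoform has 1 large variable exon of its own, which encodes the extracellular and transmembrane parts, spliced to 3 constant exons that all isoforms of the cluster share and that encode the common cytoplasmic end. Beta genes carry no constant exons. This bears directly on the values, because a read in an exon shared by several genes was assigned to none of them. Pcdhgc3, for example, had 5499 annotated exon bases, of which 3380 belonged to no other gene on the strand and could receive counts. Pcdhb20 kept all of its 3559 bases. Levels are therefore given as TMM-scaled CPM per kilobase (kb) of these countable bases, which is the scale on which genes can be compared with each other. An alpha level thus leaves out the constant exons and describes the exon bases annotated to that isoform alone.

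Pcdha4 was a special case. Of its 5768 exon bases, 494 were countable, since, besides the constant exons, 2410 bases were also annotated to Gm42416, a readthrough gene spanning several isoforms. For Pcdha4 the Bahd1-KO embryos had 0, 1 and 1 counts, and each Bahd1-WT embryo 0. With a sum of fewer than 10 counts it was left out of the test, which leaves 57 members tested. Its low count cannot be told apart from a loss of reads in the shared exon. A symbol was also duplicated, as 2 genes carried the name Pcdha11. They are given as Pcdha11 (ENSMUSG00000007440) and Pcdha11 (ENSMUSG00000102206). The latter had 4606 countable bases, against 2139 to 2501 in the other tested alpha isoforms. The isoforms are close relatives, so the share of windows of 65 bases, the read length, that matched no other transcript was computed for the countable bases. Its median was 88.6% over alpha isoforms (range 77.3 to 100%), 98.3% over beta, 100% over gamma A and 92.5% over gamma B isoforms. All windows of the 5 C-type isoforms were unique. Values of alpha and gamma B isoforms were thus the most open to reads lost or placed on a wrong relative. The countable bases, and so the levels per kb, were not corrected for this.

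C-type isoforms led the family. Pcdhgc3, which promotes dendrite branching in cortical neurons and is also made outside neurons, had 24.2, 42.2 and 29.4 CPM per kb in the Bahd1-WT embryos, a mean of 31.9 ± 9.25 (SD, n = 3). Pcdhgc4, an isoform needed for the survival of inhibitory interneurons, came second with 11.2, 15.0 and 9.74 CPM per kb. The lowest Pcdhgc3 value lay above the highest Pcdhgc4 value. Pcdhac2, which serotonin neurons use to space out their axons, had 8.14, 9.70 and 5.59 CPM per kb and held rank 6 of 58. Pcdhgc5 (1.36, 1.46 and 0.886) and Pcdhac1 (0.735, 0.948 and 0.604) were low by comparison, at ranks 45 and 52. The C-type isoforms were thus spread over ranks 1 to 52 of 58, and together they took 26.7% of the family's summed Bahd1-WT level without correction for length.

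Gamma A and gamma B isoforms followed. Ranks 3 to 5 went to Pcdhga3 at 9.80 ± 1.99, Pcdhgb6 at 9.53 ± 1.43 and Pcdhga11 at 8.75 ± 1.92 CPM per kb (SD, n = 3). Within each of the 3 Bahd1-WT embryos Pcdhgc4 lay above Pcdhga3, Pcdhgb6 and Pcdhga11, and Pcdhga11 lay above Pcdhac2, although the ranges of these neighbours overlapped between embryos. Pcdhga3 and Pcdhgb6 changed places, with Pcdhgb6 the higher in 1 of 3 embryos. Gamma A isoforms ranged down to Pcdhga9 with 2.26 ± 0.410, and all 12 were readily measured. Among gamma B isoforms, Pcdhgb7 was next at 5.28 ± 0.919, and Pcdhgb8, which is annotated as a polymorphic pseudogene, was lowest at 0.429 ± 0.0292 CPM per kb. Gamma A isoforms took 24.7% and gamma B isoforms 11.0% of the summed level, again without correction for length.

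Beta isoforms were lower one by one but many. Pcdhb20 led with 5.28 ± 1.27 CPM per kb and Pcdhb17 followed with 4.55 ± 0.805, lower than Pcdhb20 in each of the 3 embryos although the ranges overlapped. Pcdhb1 was close to silent, at 7, 8 and 3 counts per Bahd1-WT embryo against 6, 3 and 11 per Bahd1-KO embryo. The other 21 beta isoforms lay between 0.820 and 5.28 CPM per kb. The subfamily took 30.2% of the summed level, which is not corrected for length. Beta isoforms had 2588 to 8695 countable bases and gamma A isoforms 1570 to 4545, so this share does not rank the subfamilies per kb. Median Bahd1-WT levels per kb were 7.81 for C-type, 4.61 for gamma A, 3.02 for gamma B, 2.14 for alpha and 1.76 for beta isoforms. Alpha isoforms were the weakest subfamily by their sum, with 7.52%. Pcdha5 (3.60 ± 1.10) and Pcdha9 (2.92 ± 0.736) led them, and Pcdha8 was lowest among the tested isoforms at 0.0605 ± 0.0282 CPM per kb, on 18, 17 and 7 counts.

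Position within a cluster went with level in no simple way. Spearman's rho between the order of the isoforms along the chromosome and their Bahd1-WT level was -0.15 over 11 tested alpha isoforms, 0.45 over 22 beta isoforms and -0.18 over 19 gamma A and gamma B isoforms. These are descriptions across neighbouring genes, which share enhancers and libraries and are not independent points.

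**Figure D1:**
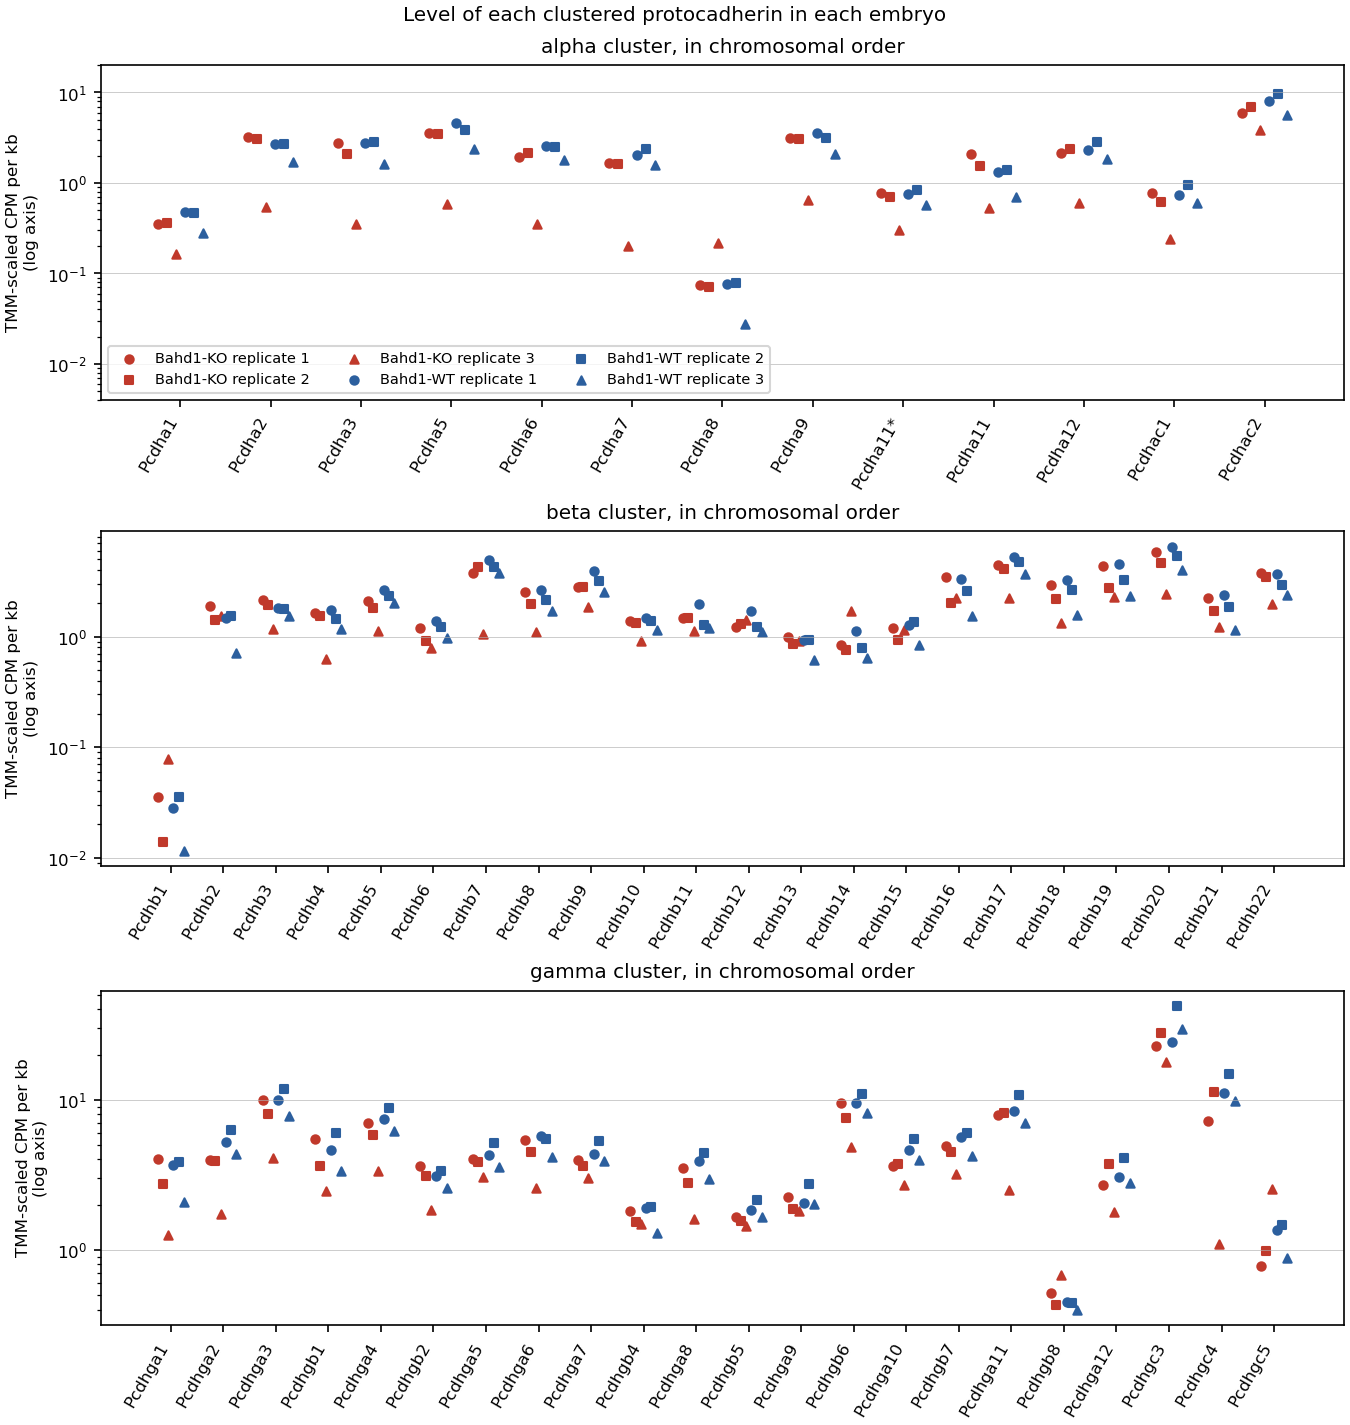
Level of each of the 57 tested isoforms in each of the 6 embryos, in TMM-scaled CPM per countable kb on a log axis, with isoforms in chromosomal order within the alpha, beta and gamma clusters; red marks are Bahd1-KO and blue marks Bahd1-WT embryos, and Pcdha11* is Pcdha11 (ENSMUSG00000007440). Pcdhgc3 stands above the rest in the Bahd1-WT embryos, Pcdhb1 and Pcdha8 lie near the floor, and the red triangles of Bahd1-KO replicate 3 lie below the other 5 embryos for 45 isoforms.

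No clustered protocadherin passed an adjusted p of 0.05 between genotypes. By the quasi-likelihood test of edgeR, 0 of 57 members were called, where 0.00404% of all 24739 genes tested were called (Bahd1 alone), and the lowest adjusted p of a member was 0.696. At an unadjusted p under 0.05 the count was again 0 of 57, against 4.67% of all genes. Without Bahd1-KO replicate 3 the adjusted count was 0 of 57 beside 0.0171% of 23334 genes, and the unadjusted count 0 of 57 beside 1.48%. DESeq2 called 0 members with all embryos, beside 0.0323% of all genes, and 0 without this embryo, beside 0.0471%. Standard errors of the log2 fold changes ran from 0.280 to 0.835 over members, with a median of 0.386 against 0.531 over all genes tested. Differences of the size seen below were therefore not detectable in 3 against 3 embryos. In whole brain RNA, fewer expressing cells and less RNA per cell cannot be told apart.

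The fitted differences leaned towards lower levels in Bahd1-KO. Of 57 members, 46 had a log2 fold change below 0 and 11 above, where 46.2% of all genes lay below 0. With upper-quartile factors, which moved the median of all genes to 0.17, 17 members lay above 0. The median log2 fold change was -0.28 over the members and 0.06 over all genes tested. Without Bahd1-KO replicate 3, 38 members lay below 0 and 19 above, with 50.8% of all genes below 0, and the median was -0.07 over members against -0.01 over all genes. Members share libraries and neighbouring promoters and are not independent. In 3 members every Bahd1-KO embryo lay below every Bahd1-WT embryo, and in 0 members above, where 2.24% of all genes did the first and 4.47% the second. Those 3 were Pcdhga2, Pcdhga10 and Pcdhgb5.

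C-type isoforms gave the lowest median, -0.49 with all embryos and -0.35 without Bahd1-KO replicate 3. Pcdhgc3 had 22.8, 27.8 and 17.9 CPM per kb in Bahd1-KO, a mean of 22.8 ± 4.93 (SD, n = 3). The second Bahd1-KO value lay within the Bahd1-WT range of 24.2 to 42.2, while the other 2 lay below it. Its log2 fold change was -0.48 (SE 0.299, edgeR adjusted p = 0.696) and -0.35 (SE 0.273) without Bahd1-KO replicate 3. Pcdhgc4 had 7.22, 11.3 and 1.09 CPM per kb in Bahd1-KO against 9.74 to 15.0 in Bahd1-WT. The last value was far below every other embryo, and the log2 fold change of -0.87 (SE 0.712) moved to -0.38 (SE 0.295) without it. Pcdhac2 had 5.92, 6.92 and 3.81 against 5.59 to 9.70, with a log2 fold change of -0.49 (SE 0.340) that became -0.29. Pcdhac1 had 0.769, 0.611 and 0.239 against 0.604 to 0.948, and its value went from -0.50 (SE 0.517) to -0.16. Pcdhgc5 had 0.785, 0.979 and 2.54 against 0.886 to 1.46. It was highest in Bahd1-KO replicate 3, and its log2 fold change of 0.21 (SE 0.516) turned to -0.50 (SE 0.315) without this embryo. With the remaining 2 Bahd1-KO embryos all 5 C-type isoforms thus had a fitted value below 0, and their groups overlapped in 5 of 5.

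All 12 gamma A isoforms had a log2 fold change below 0 (median -0.39), and 11 of 12 did without Bahd1-KO replicate 3 (median -0.15). For Pcdhga2 the Bahd1-KO embryos had 3.94, 3.91 and 1.73 CPM per kb against 5.22, 6.30 and 4.33, so the groups did not overlap. Its log2 fold change was -0.73 (SE 0.396, edgeR adjusted p = 0.696) and -0.44 (SE 0.259, edgeR adjusted p = 0.981) without this embryo. Pcdhga10 had 3.63, 3.76 and 2.72 against 4.63, 5.45 and 3.98, again without overlap, and a log2 fold change of -0.48 (SE 0.295) that became -0.36. The strongest gamma A isoforms overlapped between genotypes: Pcdhga3 had 9.98, 8.08 and 4.07 against 7.76 to 11.7, and Pcdhga11 had 7.94, 8.12 and 2.49 against 7.03 to 10.8. Their log2 fold changes of -0.41 and -0.50 both became -0.14 without Bahd1-KO replicate 3. Pcdhga9 was the steadiest, with 2.24, 1.87 and 1.83 against 2.01 to 2.74 and a log2 fold change of -0.19, or -0.15 without this embryo.

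Gamma B isoforms had 6 of 7 log2 fold changes below 0 (median -0.28), or 5 of 7 (median -0.06) without Bahd1-KO replicate 3. Pcdhgb6 had 9.53, 7.53 and 4.82 CPM per kb against 8.12 to 11.0, and its log2 fold change was -0.38 (SE 0.321), or -0.18 without this embryo. Pcdhgb7 had 4.92, 4.50 and 3.19 against 4.24 to 5.98, and a log2 fold change of -0.33 that became -0.18. In Pcdhgb5 the groups were separate by a narrow margin, at 1.65, 1.56 and 1.45 against 1.85, 2.16 and 1.65, the highest Bahd1-KO value being 1.647 and the lowest Bahd1-WT value 1.648. Its log2 fold change was -0.28, and -0.25 without this embryo. Pcdhgb8 was the 1 isoform of this subfamily above 0 with all embryos, with 0.513, 0.431 and 0.682 against 0.396 to 0.451 and a log2 fold change of 0.34 (SE 0.391) that became 0.12.

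Alpha isoforms depended on Bahd1-KO replicate 3 more than the others. With all embryos 9 of 11 tested isoforms lay below 0 (median -0.44), and without this embryo 6 of 11 (median -0.01). Pcdha7 had 1.66, 1.64 and 0.199 CPM per kb against 1.57 to 2.36, and its log2 fold change went from -0.77 (SE 0.723) to -0.29 (SE 0.283). Pcdha5 (3.57, 3.45 and 0.585 against 2.40 to 4.58) and Pcdha6 (1.95, 2.16 and 0.349 against 1.79 to 2.56) had the same layout, with 2 embryos inside the Bahd1-WT range and 1 far below, and their log2 fold changes went from -0.51 to -0.05 and from -0.62 to -0.17. Pcdha9 had 3.11, 3.03 and 0.650 against 2.10 to 3.53, with -0.37 becoming 0.06. The opposite side was held by Pcdha11 (ENSMUSG00000102206), with 2.07, 1.55 and 0.531 against 0.694 to 1.39. Its log2 fold change of 0.29 (SE 0.552) rose to 0.65 (SE 0.349) without Bahd1-KO replicate 3, where the edgeR adjusted p was 0.981. Pcdha2 likewise had 3.22 and 3.08 in Bahd1-KO replicates 1 and 2 against 1.71 to 2.72 in Bahd1-WT, but 0.548 in replicate 3, so that its log2 fold change went from -0.06 to 0.39. Pcdha8 had the highest fitted value of all members, 0.98 (SE 0.707), on 12, 15 and 29 counts against 18, 17 and 7. Without Bahd1-KO replicate 3 it was 0.26 (SE 0.533), below that of Pcdha11 (ENSMUSG00000102206).

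Beta isoforms were nearest to 0. Their median was -0.12 with 15 of 22 below 0, and -0.01 with 11 of 22 below 0 without Bahd1-KO replicate 3. Pcdhb20 had 5.80, 4.63 and 2.44 CPM per kb against 3.99 to 6.52, with a log2 fold change of -0.30 that became -0.03. Pcdhb17 had 4.44, 4.10 and 2.22 against 3.67 to 5.25, a log2 fold change of -0.34 that became -0.10. Pcdhb5 had 2.08, 1.82 and 1.13 against 2.03 to 2.65, and kept -0.28 (SE 0.253) of its -0.48 (SE 0.347). Pcdhb2 lay on the other side, with 1.88, 1.402 and 1.52 against 0.707 to 1.54 and a log2 fold change of 0.37 (SE 0.410) that was 0.39 without this embryo. Pcdhb14 had 0.848, 0.754 and 1.72 against 0.642 to 1.114, so its value of 0.38 rested on Bahd1-KO replicate 3 and was -0.10 without it. For Pcdhb1, at 3 to 11 counts per embryo, a log2 fold change of 0.74 had an SE of 0.835 and became -0.07 without this embryo.

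**Figure D2:**
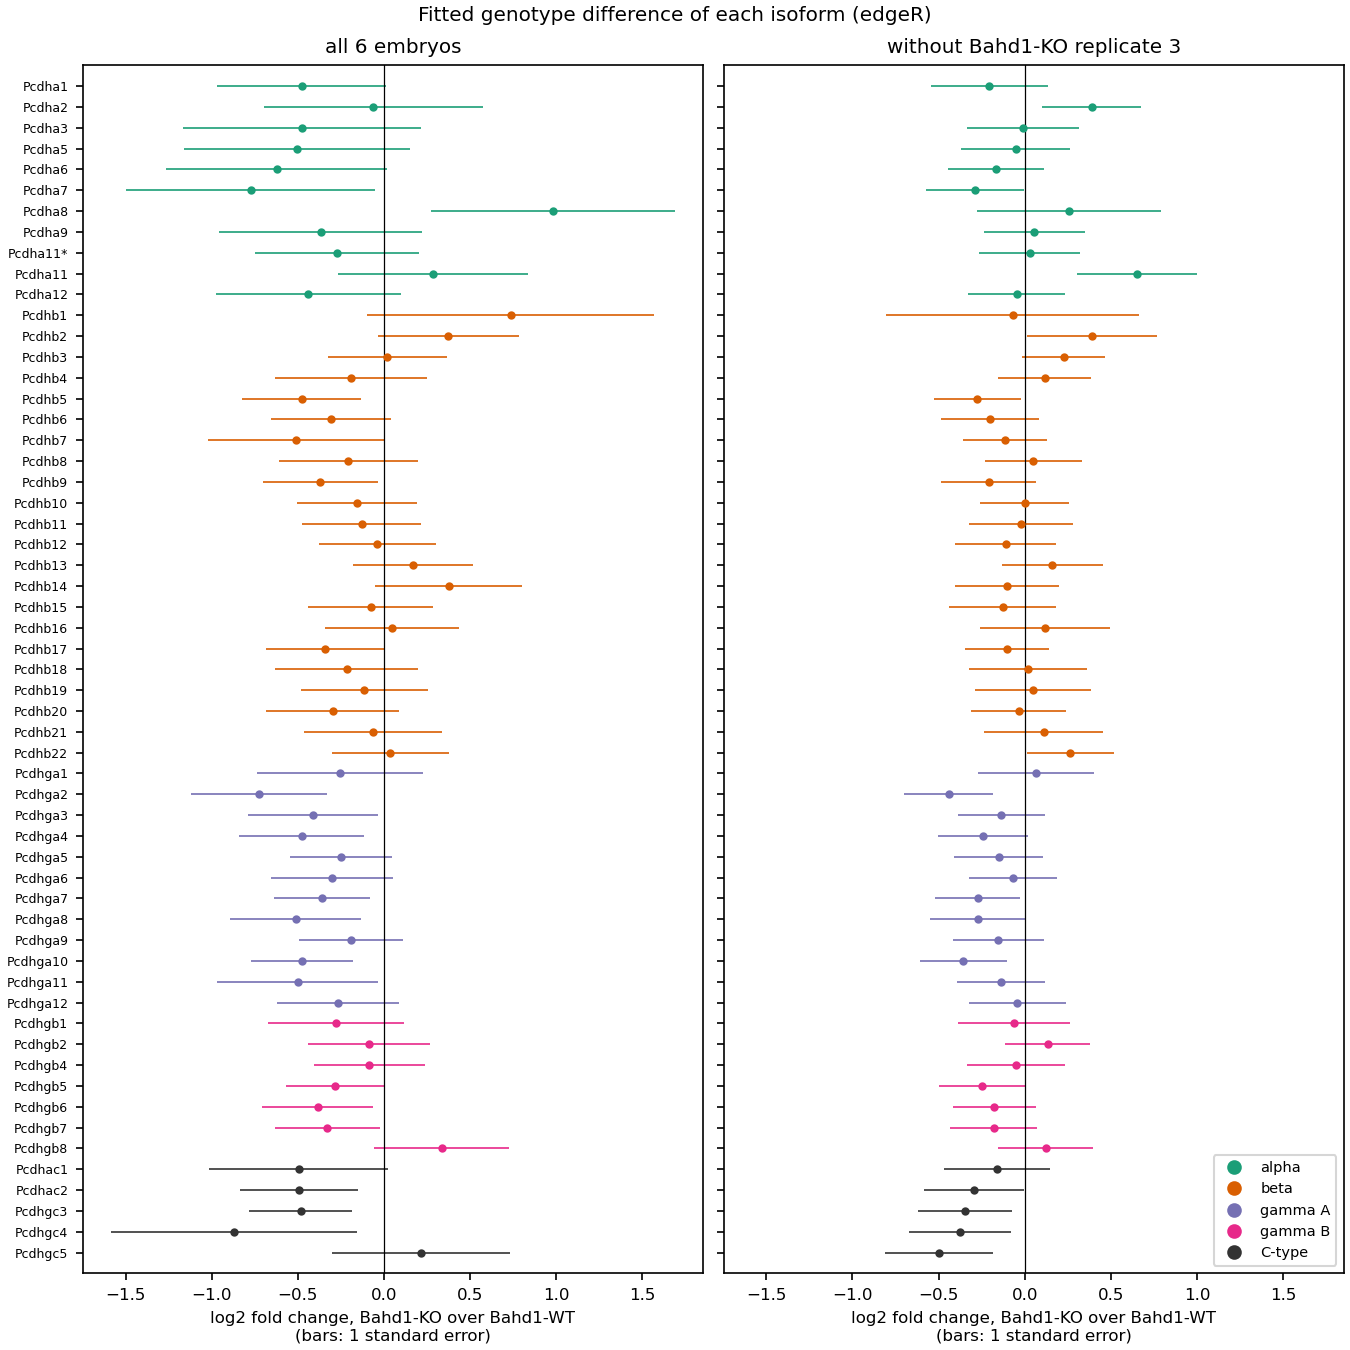
Fitted log2 fold change of each of the 57 tested isoforms (x axis, Bahd1-KO over Bahd1-WT, edgeR) with bars of 1 standard error, with all 6 embryos on the left and without Bahd1-KO replicate 3 on the right; colours mark the subfamilies. With all embryos 46 points lie left of 0 and without this embryo 38, and all 5 C-type isoforms lie left of 0 in the right panel.

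Summed over isoforms, the families gave the same picture. The 58 genes together had 644, 609 and 362 CPM per Bahd1-KO embryo against 708, 783 and 545 CPM per Bahd1-WT embryo. The means were 538 ± 154 and 678 ± 122 (SD, n = 3), a ratio of 0.794 that was 0.923 with Bahd1-KO replicates 1 and 2. The ratio for C-type isoforms was 0.690 (125 ± 36.0 against 181 ± 45.3 CPM) and 0.791 with these 2 embryos. For gamma A isoforms it was 0.757 and 0.896, and for gamma B isoforms 0.829 and 0.935. For beta isoforms it was 0.902 and 1.02, and for alpha isoforms 0.795 and 1.07. In each subfamily the Bahd1-KO and Bahd1-WT embryos overlapped, and in each the lowest embryo of the 6 was Bahd1-KO replicate 3.

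Bahd1-KO replicate 3 departed from the other embryos by an amount that differed between isoforms. Its level was below that of all other embryos in 45 of 57 members and above in 5, where the shares over all genes were 36.0% and 38.1%. On the log2 scale of CPM plus 0.5, its difference from the mean of the other 5 embryos had a median of -0.81 over the members and -0.01 over all genes. Alpha isoforms had a median of -1.88 and gamma A isoforms of -0.95. For C-type isoforms the median was -0.87, for gamma B isoforms -0.62 and for beta isoforms -0.53. Within the alpha subfamily the difference ran from -2.26 for Pcdha7 to 0.65 for Pcdha8. Within the beta subfamily it ran from -1.86 for Pcdhb7 to 1.02 for Pcdhb14.

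The 2 ends of the whole family were neighbours in the gamma cluster. Pcdhgc4 had the most negative difference, -3.12, on 205 counts against 1645 to 4586 in the other embryos. Pcdhgc5, an isoform known to rise as the brain matures after birth, had the most positive one, 1.17, on 632 counts against 237 to 600. Neuron markers were unequal in this library too. Their median difference was -2.09, while Dcx, a marker of young migrating neurons, differed by -6.29, Tubb3 by -5.12, and Snap25, a protein of the synaptic release machinery, by 2.15. Per 1000 CPM of summed neuron markers, alpha isoforms had 3.87 CPM in this embryo and 3.59 to 5.19 in the others. Beta isoforms had 43.3 against 15.3 to 20.4, gamma A isoforms 25.7 against 13.4 to 17.8, gamma B isoforms 14.7 against 5.91 to 7.75 and C-type isoforms 28.2 against 11.2 to 20.8. Relative to this marker list, alpha isoforms lay inside the range of the other embryos and the other 4 subfamilies above it. The list is uneven within itself, and the part of neurons, of other tissues or of the library's low protein-coding share in these values was not tested.

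**Figure D3:**
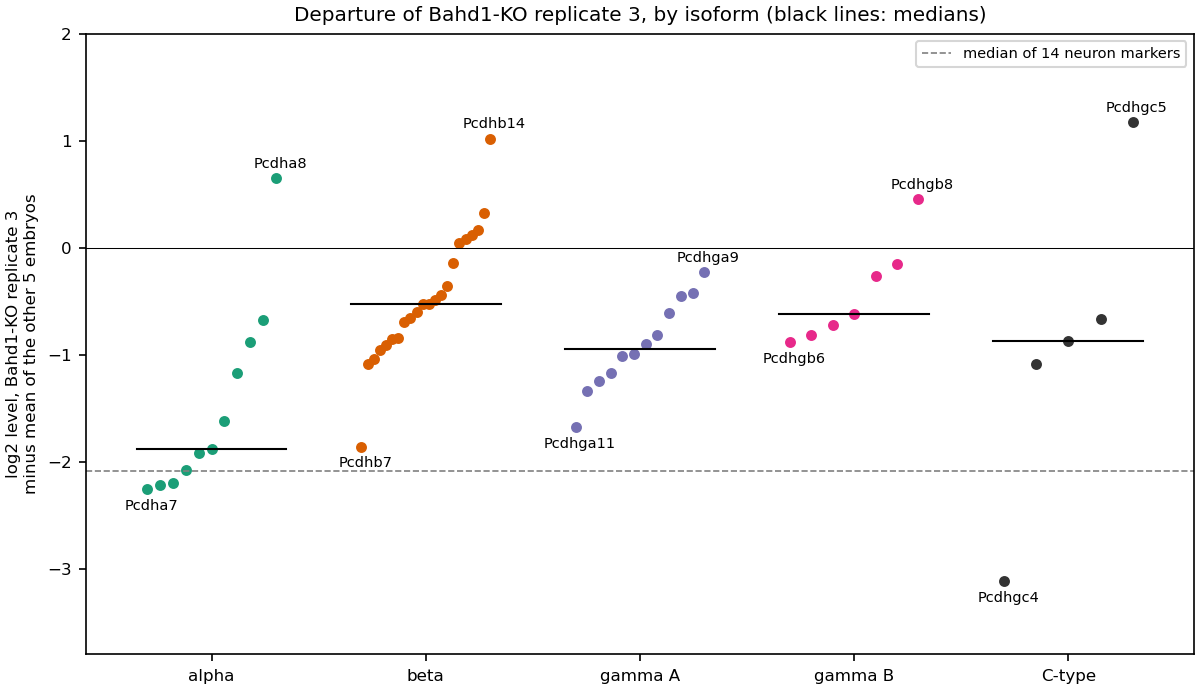
Difference of Bahd1-KO replicate 3 from the mean of the other 5 embryos on the log2 scale of TMM-scaled CPM plus 0.5 (y axis) for each of the 57 tested isoforms, sorted within each subfamily; black lines are medians and the dashed line is the median of 14 neuron markers. Alpha isoforms lie lowest with a median of -1.88, and Pcdhgc4 at -3.12 and Pcdhgc5 at 1.17 mark the ends.

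The mixture of isoforms was described by the effective number of isoforms, the exponential of the Shannon entropy of their shares, which equals the number of isoforms when all are equally abundant. In Bahd1-WT it was 8.92 ± 0.121 of 11 tested alpha isoforms, 18.3 ± 0.179 of 22 beta isoforms, 11.0 ± 0.0238 of 12 gamma A isoforms and 5.32 ± 0.0536 of 7 gamma B isoforms (SD, n = 3). Gamma A isoforms were thus the most evenly used. Among gamma B isoforms Pcdhgb6 alone held 36.0 ± 1.31% of the subfamily's level per kb in Bahd1-WT. In Bahd1-KO the numbers were 9.31 ± 0.627, 18.9 ± 0.841, 11.1 ± 0.241 and 5.64 ± 0.340. The wider spread came from Bahd1-KO replicate 3, which was highest of the 6 embryos in all 4 subfamilies, while replicates 1 and 2 had 8.97 and 8.94 for alpha, 18.4 and 18.4 for beta, 10.9 and 11.0 for gamma A, and 5.39 and 5.50 for gamma B isoforms.

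The order of isoforms by level was shared closely by 5 embryos. Over 57 isoforms, Spearman's rho between pairs of embryos was 0.943 to 0.981 in the 10 pairs without Bahd1-KO replicate 3 and 0.673 to 0.717 in the 5 pairs with it. For beta isoforms these ranges were 0.907 to 0.975 and 0.488 to 0.661, and for gamma A isoforms 0.762 to 1 and 0.517 to 0.587. Gamma B isoforms kept their order in this embryo, with 0.929 to 1 in both sets of pairs. Among C-type isoforms, Pcdhgc4 held 4.27% of their level per kb in Bahd1-KO replicate 3 against 19.3 to 24.5% in the other embryos, and Pcdhgc5 9.93% against 1.91 to 2.98%. These are descriptions across isoforms of the same libraries.

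Genes that act on these promoters or with these proteins were examined with the same edgeR fit, and 0 of them passed the adjusted threshold. Of 29 factors of chromatin looping, DNA methylation and silencing, 15 had a log2 fold change above 0 and 14 below, with a median of 0.04 (0.01 without Bahd1-KO replicate 3) and 0 at an unadjusted p under 0.05. Their values ran from -0.87 for Wiz (-0.56 without Bahd1-KO replicate 3) to 0.83 for Rest (0.11 without it). Ctcf, which anchors the loops, measured 164 ± 24.8 CPM in Bahd1-KO against 167 ± 4.96 CPM (SD, n = 3), a log2 fold change of -0.02 that was 0.035 without this embryo and positive also with upper-quartile factors (0.088) and protein-coding totals (0.054). Setdb1, a histone H3 lysine methyltransferase that represses the clusters, had 99.2 ± 24.6 and 116 ± 4.25 CPM (log2 fold change -0.23, and -0.06 without this embryo). Smchd1, another repressor of the clusters, had 160 ± 30.5 and 138 ± 29.2 (0.21, and 0.22 without it). Dnmt3b, which methylates their promoters, had 4.66 ± 2.13 and 3.65 ± 0.281 (0.35, and -0.10 without this embryo).

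Of 26 genes for proteins that cut, bind or signal below the protocadherins, 10 lay above 0 and 16 below, with a median of -0.06 (-0.02 without Bahd1-KO replicate 3) and 0 at an unadjusted p under 0.05. Protocadherins outside the clusters (12 genes) had 4 above and 8 below, a median of -0.18 that was 0.00 without Bahd1-KO replicate 3, and 0 at an unadjusted p under 0.05. Of 17 classical and type II cadherins, 6 lay above and 11 below, with a median of -0.24 that became -0.13. The 1 cadherin at an unadjusted p under 0.05 was Cdh1, the cadherin of epithelia, at 420, 726 and 12890 counts per Bahd1-KO embryo against 797, 776 and 957. Its log2 fold change of 3.25 (SE 1.34, edgeR adjusted p = 0.696) rested on Bahd1-KO replicate 3 and was -0.25 without it. Of 14 genes that flank the clusters on chromosome 18, 3 lay above 0 and 11 below. Their median was -0.18 with all embryos and -0.19 without Bahd1-KO replicate 3. Serotonin neuron markers, of interest for Pcdhac2, summed to 42.4, 71.1 and 25.4 CPM in Bahd1-KO against 66.9, 53.8 and 66.1, and 0 of 8 were called. Slc18a2 had 29.6, 25.2 and 5.34 CPM in Bahd1-KO against 20.2 to 29.0. In Bahd1-KO replicate 1, Tph2 was 0.351 CPM against 3.65 to 4.88 in Bahd1-WT. There Slc6a4 was 1.18 against 5.95 to 8.66, and Fev 0 against 0.522 to 0.794. Gata2, Gata3 and Lmx1b also lay below the Bahd1-WT range there, and Slc22a3 inside it. In Bahd1-KO replicate 3 Tph2 was 3.80 and Slc6a4 2.69 CPM. Dividing progenitor markers summed to 996 and 1145 CPM in Bahd1-KO replicates 1 and 2, 1624 in replicate 3 and 915 to 1284 in Bahd1-WT, with 0 of 10 called. In replicate 3 the list was split, with 5 of 10 above the other embryos, Mki67 (663 CPM) and Top2a (340 CPM) among them. The other 5 lay below, among them Pax6, Eomes, Sox2 and Hes5. Over all genes tested 38.1% lay above and 36.0% below in this library, so such a split is not particular to progenitor markers. Choroid plexus markers summed to 198 CPM in Bahd1-KO replicate 3 and 306 to 793 elsewhere. The sum followed Ttr (56.0 CPM against 238 to 695), while 6 of 9 markers lay above the other embryos, among them Aqp1, and 3 below. In the same library red cell markers summed to 429 against 133 to 594, and hindbrain markers to 67.6 against 0.351 to 14.4, where Hoxd4 had 1 of its 2 gene entries at 0 in every embryo.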

How the data were processed

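The deposited values were raw read counts per Ensembl gene, 1 column per embryo, with no filter. Per the labels and the study's methods, the authors trimmed reads with cutadapt 1.11, aligned them to GRCm38 with STAR 2.5.0a (TopHat2 is also named) and counted exon reads with featureCounts 1.4.6-p3 in a strand-specific mode that is not the usual one for the stated stranded kit, which was not resolved. Reads in exons shared by several genes were dropped. Genes whose counts summed to 10 or more were tested with edgeR 4.0.16 (R 4.3.3, limma 3.58.1), with TMM factors and genotype alone, two-sided, with Benjamini-Hochberg adjustment over all genes and a threshold of 0.05. Exons came from GENCODE M21, a later release than the authors' annotation, which held 58 of 58 members. Alternatives were DESeq2 1.42.0, other filters, scalings and tests, the replicate block and embryos left out. Litters were not stated.

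Members were taken by symbol. The symbol rule, the gene lists and the alternatives were chosen with earlier results of these data known. Named in full were Bahd1, the C-type isoforms, the highest and lowest isoforms of each subfamily, those with the highest and lowest fold changes or smallest p, Ctcf, Smchd1, Setdb1, Dnmt3b and Cdh1, the 1 gene of the 5 pathway lists at an unadjusted p under 0.05. Markers at that level among 4 hindbrain, 6 lung and 3 red cell genes are given as sums, apart from the named lung genes. Pcdhgb5, Pcdhb7, Wiz, Rest and the named neuron, progenitor, serotonin, choroid plexus, lung and meninges markers were chosen after their values were seen.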

Additional observations from a re-analysis of the deposited data

How the results depend on the processing

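No clustered protocadherin was called under any of the alternatives run, including an adjusted threshold of 0.1. In 7 of them (protein-coding totals, the replicate block, and each embryo other than Bahd1-KO replicate 3 left out) no gene was called, so a count of 0 members says nothing there. Bahd1 lost its call in these 7, with log2 fold changes of -8.78 to -8.01 and edgeR adjusted p of 0.0990 to 0.685. The other fits called 1 to 16 genes. The count at an unadjusted p under 0.05 was 0 in each, except 7 with the replicate block and without Bahd1-KO replicate 3 (Pcdhac2, Pcdhga2, Pcdhga8, Pcdhga10, Pcdhgc3, Pcdhgc4 and Pcdhgc5, all lower in Bahd1-KO, lowest edgeR adjusted p 0.293), beside 9.30% of all genes in that fit. Whether the replicate numbers pair the embryos was not settled, because litters were not stated and 3 embryos a group are too few to tell. For the deviations of same-numbered embryos the correlations were 0.26, 0.34 and -0.12. Embryos with different numbers gave -0.50 to 0.38, so the 2 sets overlapped. Members above 0 numbered 11, but 17 with upper-quartile factors, 6 with total counts, 22 with voom quality weights, 19 with DESeq2 without Bahd1-KO replicate 3, 7 with the replicate block without that embryo, and 7 (without Bahd1-WT replicate 3) to 19 (without Bahd1-KO replicate 3) with 1 embryo left out. Over all genes the median log2 fold change was 0.06, and it became 0.17 with upper-quartile factors, 0.14 with protein-coding totals and -0.11 with total counts. The cause of the changes was not tested. SEs of 0.280 to 0.835 limit what 3 embryos a group can show.

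Effective isoform numbers in Bahd1-WT were 9.09 (alpha), 17.3 (beta), 11.3 (gamma A) and 5.66 (gamma B) with counts not divided by length, and 17.4 for beta in Bahd1-KO. With whole exon length they were 11.2 (gamma A) and 5.43 (gamma B).

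Some named log2 fold changes reversed. With 1 embryo left out they ranged from -0.39 to 0.39 (Pcdha2, above 0 without Bahd1-KO replicate 3 or Bahd1-WT replicates 1 or 2), -0.66 to 0.057 (Pcdha9), -0.070 to 1.14 (Pcdhb1), -0.10 to 0.58 (Pcdhb14), -0.50 to 0.51 (Pcdhgc5), -0.25 to 3.81 (Cdh1), -0.15 to 0.035 (Ctcf) and -0.10 to 0.53 (Dnmt3b), each reversed without Bahd1-KO replicate 3, and from -0.12 (without Bahd1-KO replicate 1) to 0.65 for Pcdha11 (ENSMUSG00000102206). DESeq2 without Bahd1-KO replicate 3 gave 0.39 for Pcdha2, 0.055 for Pcdha9, -0.056 for Pcdhb1, -0.10 for Pcdhb14, -0.50 for Pcdhgc5, -0.25 for Cdh1, 0.035 for Ctcf and -0.10 for Dnmt3b. The replicate block without it gave 0.20 for Pcdha2, -0.094 for Pcdha8, -0.44 for Pcdhb1, -0.25 for Pcdhb14, -0.70 for Pcdhgc5, -0.22 for Cdh1, 0.032 for Ctcf and -0.063 for Dnmt3b. Voom weights gave 0.28 for Pcdha2, 0.014 for Pcdhb20, -0.47 for Pcdhgc5, -0.047 for Cdh1, 0.080 for Ctcf and -0.066 for Dnmt3b. Ctcf was 0.019 with filterByExpr, 0.088 with upper-quartile factors and 0.054 with protein-coding totals. Pcdha2 was 0.012 with upper-quartile factors, and Pcdhgc5 -0.12 with total counts.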
